A study of Mus musculus with 6 samples.

Results

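Mitotic spindle, kinetochore and checkpoint genes were followed in RNA from mammary spheres of MMTV-HER2/Neu mice. The group holds 42 genes, listed by symbol, out of 19893 gene symbols with a row in the count tables of all libraries. For each symbol the transcript with the highest mean count was taken, and all 42 genes passed the filter on low counts, which left 13844 genes for testing. The study has 2 groups of 3 libraries. Early lesion (EL) spheres came from FvB mice of 14 to 18 weeks with no palpable tumour, and primary tumour (PT) spheres from FvB mice older than 20 weeks that carried tumours. Every mouse in both groups carries the Neu oncogene, a form of the receptor ERBB2, under the mammary tumour virus promoter, so no library comes from a gland without the transgene. Glands or tumours were digested and the cells grown for 7 days without attachment in mammosphere medium. The labels call the cells of both groups breast cancer cells, and the tissue label of the EL samples reads mammary lung. The labels do not tie the libraries to individual mice, so the p-values speak only to the scatter among the sequenced libraries, and that scatter may be technical.

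A dividing cell builds a spindle of microtubules, attaches it to each chromosome through the kinetochore, and separates the sister chromatids only once every kinetochore is attached. CDK1 with its cyclins starts mitosis, the Aurora and Polo kinases shape the spindle, the spindle checkpoint holds back the anaphase-promoting complex (APC/C), and kinesins and cytokinesis proteins complete the division. Most of these genes are transcribed in late S phase and G2 under the MuvB complex with B-MYB and FOXM1, so their RNA is widely read as a measure of how many cells in a tissue are cycling. In the mammary gland, division is a property of epithelial progenitors and also of stromal, endothelial and immune cells, and these sphere libraries hold RNA of whole cultures. In such bulk RNA, fewer dividing cells and less of a transcript in each cell cannot be told apart.

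Expression is given in CPM, here the read count of the chosen transcript divided by a TMM-scaled library total and multiplied by 1000000. The total is that of the chosen transcripts of the genes that passed the filter. Before filter and scaling, the totals of all chosen transcripts ranged from 43278382 to 51117359. Sums over cell type markers used these unfiltered totals with the same TMM factors. The 42 genes were all lower in PT than in EL spheres, between 1.12-fold and 3.97-fold, with a median log2 fold change (PT minus EL) of -1.42. The edgeR quasi-likelihood test called all 42 lower and none higher at an adjusted p below 0.05, where 80.7% of all genes tested were called in either direction, 40.8% lower and 39.9% higher. With library totals alone as the scaling 41 were called lower, against 29.7% of all genes, while 57.1% of all genes were then called higher. No member was higher at an unadjusted p under 0.05 either, and DESeq2 and limma-voom also called none higher. Every PT value lay under every EL value for all 42 genes, which was so for 41.7% of all genes. The estimated fold change passed 2-fold for 35 of the 42 genes, against 19.4% of all genes tested. Against a 2-fold minimum, the same tool called 34 genes, where 17.3% of all genes were called lower.

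The members together made up 1136, 1015 and 1008 CPM in EL replicates 1 to 3 and 447, 447 and 466 CPM in PT replicates 1 to 3. All EL sums lay far above the highest PT sum. The group means were 1053 ± 71.8 CPM for EL and 453 ± 10.7 CPM for PT (SD over 3 libraries each), a ratio of 2.32 (exact two-sided permutation p = 0.1, the smallest that 3 against 3 allows). EL replicate 1 was the highest EL library for 36 of the 42 genes, while it was the highest for 38.2% of all genes tested. Without it the median log2 fold change of the members was -1.31, and all 42 genes were again called lower. The median coefficient of variation of a member over the 3 libraries was 8.77% in EL and 5.62% in PT. Member counts ranged from 129 in a PT library to 3830 in an EL library.

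**Figure D1:**
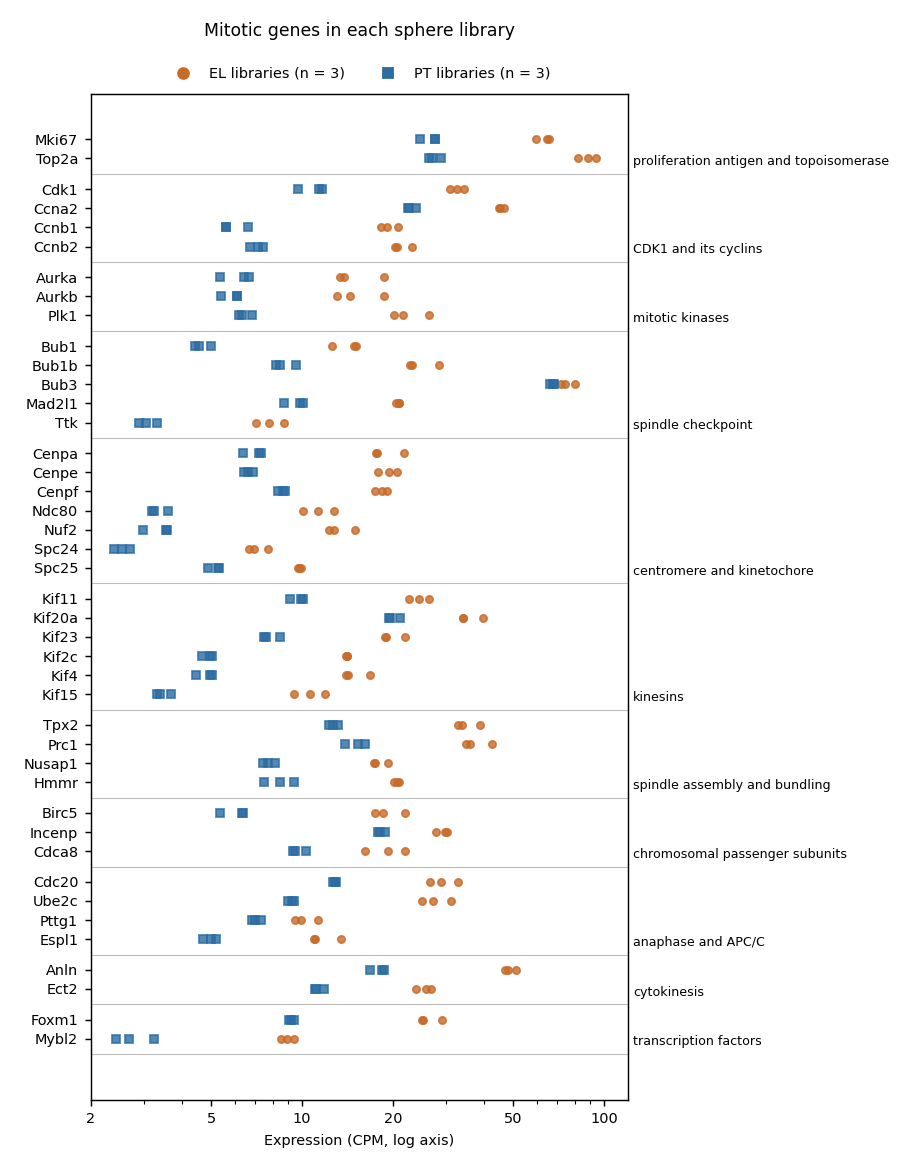
Expression of each of the 42 genes in every library (x axis, CPM on a log axis), grouped by role; circles are the 3 EL libraries and squares the 3 PT libraries. The squares lie to the left of the circles in every row, with the groups nearest each other for Bub3 and farthest apart for Nuf2.

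The promoters of these genes share short sequence elements that the choice of members did not use. Such elements of cell cycle promoters include the cell cycle genes homology region (CHR), searched here as TTTGAA or TTCGAA, and the CCAAT box bound by NF-Y. Here RefSeq promoter sequences of the GRCm38.p6 build, from 250 bases before to 50 after the start, were found for 35 of the 42 genes and for 10395 of the genes tested. Both strands were searched, TTCGAA reads the same on both, and matches to CCAAT may overlap each other. CHR letters stood in the promoters of 27 of the 35 members (77.1%) and of 16.2% of the tested genes. Within the last 100 bases before the start and the 50 after it, they were found in 26 members (74.3%) and in 6.56% of tested genes. CCAAT was found in 25 members (71.4%) against 42.5% of tested genes, and at least 2 copies in 18 members (51.4%) against 15.8%. Both kinds together were found in 23 members (65.7%) against 6.70%. The other cell division genes listed further below lay between members and tested genes in each of these shares. Of 94 of them with a promoter sequence, 46.8% had CHR letters, 57.4% CCAAT and 31.9% both kinds. The variant TTTAAA of the CHR, counted apart, stood in 9 members (25.7%), 12.8% of those other genes and 11.1% of tested genes. A letter match is a description of the sequence and does not show that a factor binds there.

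The 120 bases before the start are printed for Top2a, Kif11 and Hmmr, as members with matching letters, and for Nuf2 and Birc5, as members with none. All are from RefSeq on GRCm38.p6 and are written 5′ to 3′ on the strand of the gene, with CHR and CCAAT letters of either strand in capitals. They stand at chr11:99024190-99024309 (minus strand) for Top2a, chr19:37376262-37376381 (plus) for Kif11, chr11:40733438-40733557 (minus) for Hmmr, chr1:169531465-169531584 (minus) for Nuf2 and chr11:117849117-117849236 (plus) for Birc5.
Top2a: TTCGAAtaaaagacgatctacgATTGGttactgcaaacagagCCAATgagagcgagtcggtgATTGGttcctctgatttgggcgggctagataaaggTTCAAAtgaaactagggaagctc
Kif11: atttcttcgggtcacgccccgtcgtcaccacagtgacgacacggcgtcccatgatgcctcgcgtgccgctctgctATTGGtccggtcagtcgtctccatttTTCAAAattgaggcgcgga
Hmmr: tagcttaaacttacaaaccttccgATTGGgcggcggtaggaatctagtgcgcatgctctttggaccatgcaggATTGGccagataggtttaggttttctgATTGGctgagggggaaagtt
Nuf2: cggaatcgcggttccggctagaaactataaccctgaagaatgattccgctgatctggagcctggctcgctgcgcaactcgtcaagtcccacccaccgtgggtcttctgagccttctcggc
Birc5: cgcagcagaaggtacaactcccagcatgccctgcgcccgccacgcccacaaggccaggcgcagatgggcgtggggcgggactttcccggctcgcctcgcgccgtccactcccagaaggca
Top2a has 3 CCAAT boxes in this window and CHR letters on either side of them. Kif11 has 1 CCAAT box 45 to 41 bases before the start and 1 CHR match from 19 to 14 bases before it. Hmmr has 3 CCAAT boxes here, and its CHR letters lie just after the start, at bases 9 to 14.

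The 8 members with a promoter sequence but no CHR letters in it were Ccnb1, Mad2l1, Cenpe, Nuf2, Nusap1, Birc5, Pttg1 and Mybl2. The median log2 fold change of these 8 was -1.61, and that of the 27 members with the letters was -1.35. Of the 8, Ccnb1, Cenpe and Birc5 carried the variant TTTAAA, which was counted apart. The member with the largest fold change, Nuf2, had neither element in its window. Bub3, the member with the smallest, had both. Members with and without the letters were thus mixed along the order of fold changes. At 1 start per gene, the 37 CHR matches lay at a median of 12.5 bases before the start and the 60 CCAAT boxes at a median of 67.5 bases before it.

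**Figure D2:**
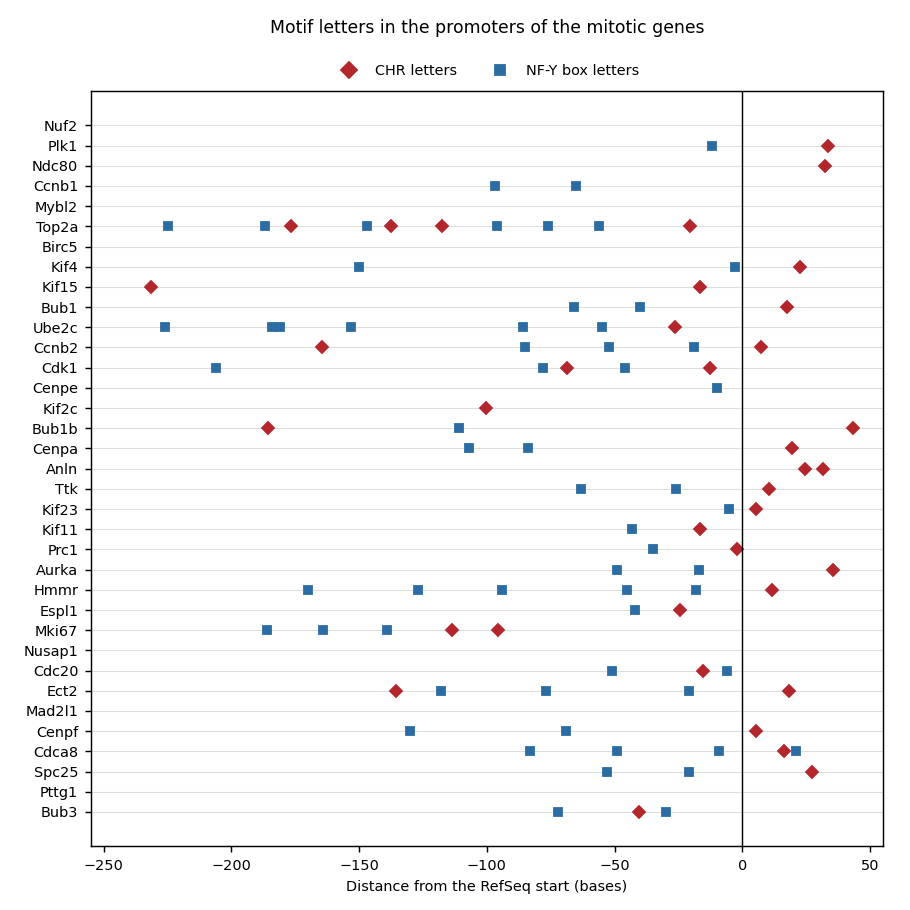
Positions of CHR letters (diamonds) and NF-Y box letters (squares) in the promoters of the 35 members with a sequence, at 1 start per gene; the x axis is the distance from the RefSeq start in bases, and genes run from the largest to the smallest fold change from top to bottom. NF-Y boxes gather before the start and CHR letters nearer to it, and rows without symbols occur at both ends.

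Among the markers of proliferation, Top2a encodes the topoisomerase that untangles sister chromatids. Its level was 94.1, 88.3 and 81.8 CPM in EL replicates 1 to 3 and 26.3, 26.9 and 28.7 in PT replicates 1 to 3. The groups were far apart, and the log2 fold change was -1.69 (SE 0.05; edgeR adjusted p = 5.51e-12), the smallest adjusted p of the 42. Mki67 encodes Ki-67, which coats mitotic chromosomes and is the marker most used in pathology. It stood at 64.6, 65.7 and 59.7 CPM in EL spheres and 24.6, 27.6 and 27.6 in PT spheres, a log2 fold change of -1.25 (SE 0.05).

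CDK1 is the kinase that drives entry into mitosis, and it acts with cyclin B. Cdk1 was at 34.3, 32.6 and 30.9 CPM in EL spheres and 11.7, 9.72 and 11.4 in PT spheres (log2 fold change -1.58, SE 0.07). For Ccnb1 the values were 20.8, 18.2 and 19.1 CPM in EL spheres and 5.62, 5.58 and 6.65 in PT spheres (-1.70, SE 0.08). For Ccnb2 they were 23.1, 20.7 and 20.3 CPM in EL libraries against 7.16, 6.74 and 7.42 in PT libraries (-1.59, SE 0.07). The log2 fold changes of the kinase and both B cyclins thus lay between -1.70 and -1.58. Ccna2, cyclin A2, also acts in S phase. Its levels were 46.8, 45.3 and 44.7 CPM in EL spheres and 22.6, 22.4 and 23.8 in PT spheres, a smaller fall (log2 fold change -0.99, SE 0.04). The ratio of Ccna2 to Ccnb1, both per kilobase of transcript, was 1.89, 2.09 and 1.97 in the EL libraries and 3.38, 3.37 and 3.01 in the PT libraries. Relative to Ccnb1, Ccna2 was thus higher in every PT library, whereas the ratio of Cdk1 to Ccnb2 overlapped between the groups (0.534 ± 0.0165 in EL and 0.537 ± 0.0329 in PT).

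Of the mitotic kinases, Plk1, the Polo kinase of centrosome maturation and cytokinesis, had the second largest fold change of all members. Its levels were 26.4, 20.2 and 21.6 CPM in EL spheres and 6.16, 6.82 and 6.32 in PT spheres (log2 fold change -1.82, SE 0.10). EL replicate 1 was the highest library, and even the lowest EL value lay far above PT. Aurka, the Aurora kinase of the spindle poles, was at 18.7, 13.7 and 13.4 CPM in EL spheres and 6.67, 5.36 and 6.43 in PT spheres (-1.31, SE 0.13). Here EL replicate 1 again stood above the other EL libraries, and without it the value was -1.14. Aurkb, the Aurora kinase of the centromere, had the same highest library, with 18.7, 14.4 and 13.1 CPM in EL spheres and 5.40, 6.09 and 6.07 in PT spheres (-1.39, SE 0.12; -1.23 without EL replicate 1).

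AURKB works inside the chromosomal passenger complex with survivin (Birc5), borealin (Cdca8) and the scaffold INCENP. Birc5 was at 21.9, 17.5 and 18.6 CPM in EL spheres and 6.34, 5.34 and 6.36 in PT spheres (log2 fold change -1.69, SE 0.10). Cdca8 was at 22.01, 16.1 and 19.2 CPM in EL libraries against 10.3, 9.33 and 9.49 in PT libraries (-0.98, SE 0.10), and EL replicate 2 was its lowest EL library. Incenp had the smallest change of the complex, from 29.8, 30.1 and 27.7 CPM in EL to 17.8, 18.1 and 18.8 in PT (-0.68, SE 0.05). All 4 subunits fell, but not by the same amount. The ratio of Incenp to Birc5 per kilobase was 1.57 ± 0.190 for EL and 3.14 ± 0.319 for PT (SD over 3 libraries), and the groups did not overlap. This ratio and all other ratios between members given here were formed after the fold changes were seen and carry no test. Ratios of other gene pairs were not computed, so how common such separation is among them is not known.

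The spindle checkpoint held the widest range of any role. Bub1, a kinase that recruits checkpoint proteins to the kinetochore, was at 15.1, 12.6 and 14.8 CPM in EL spheres and 4.54, 4.42 and 4.98 in PT spheres (log2 fold change -1.61, SE 0.09). Bub1b, which encodes the APC/C inhibitor BUBR1, was at 28.4, 23.2 and 22.7 CPM in EL libraries against 8.21, 8.48 and 9.56 in PT libraries (2.83-fold lower). Ttk, the MPS1 kinase at the head of the checkpoint, had levels of 8.70, 7.05 and 7.77 CPM in EL spheres and 3.32, 3.03 and 2.89 in PT spheres (-1.35, SE 0.11). All of these fell over 2-fold. Mad2l1 encodes MAD2, the protein that binds and holds CDC20. It was at 20.9, 20.5 and 21.00 CPM in EL spheres and 8.74, 9.83 and 10.1 in PT spheres (-1.12, SE 0.06).

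Bub3, the adaptor that carries BUB1 and BUBR1 to the kinetochore, stood apart from its partners (chromosome 7, 131560367 to 131571895, GRCm38). Its levels were 79.9, 71.8 and 74.01 CPM in EL spheres and 66.4, 68.1 and 67.9 in PT spheres. All PT values lay under all EL values, but the gap was narrow, with a log2 fold change of -0.16 (SE 0.04; edgeR adjusted p = 0.00320). The direction depended on the scaling: scaled by library totals alone, which moved the median of all genes by 0.25 on the log2 scale, Bub3 was at 0.09 (adjusted p = 0.0619). Bub3 was also the member with the highest level per transcript length, at 33.9 CPM per kilobase in EL and 30.4 in PT. The ratio of Bub3 to Bub1 per kilobase was 8.16, 8.79 and 7.70 in EL and 22.5, 23.8 and 21.0 in PT, while that of Bub1b to Bub1 overlapped (1.63 ± 0.177 and 1.76 ± 0.0609). Relative to the median of all 42 genes in the same library, which does not depend on the scaling factor, Bub3 was 1.22 higher in PT on the log2 scale.

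**Figure D3:**
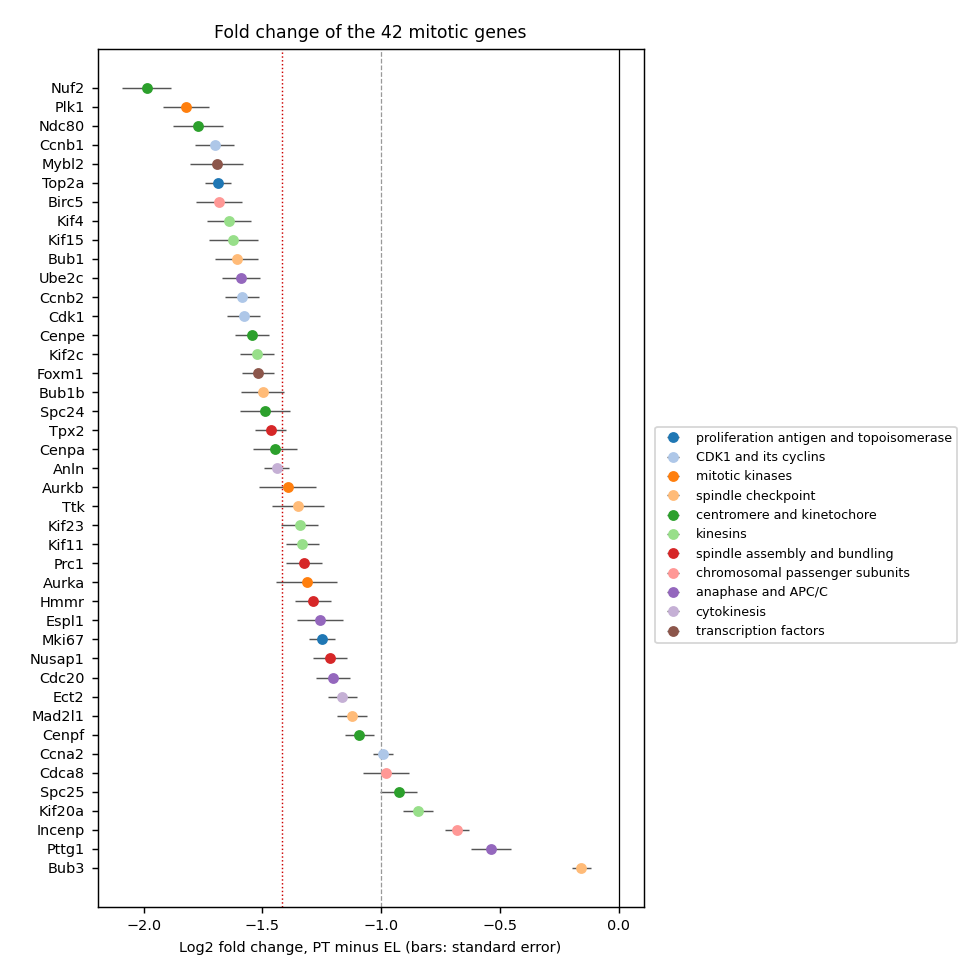
Log2 fold change (PT minus EL, x axis) of the 42 genes with standard errors as bars, sorted from the largest fall to the smallest and coloured by role; the dashed line marks a 2-fold fall and the dotted line the median of -1.42. Most genes lie between -1.7 and -1.1, Nuf2 is at -1.99 and Bub3 at -0.16.

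At the kinetochore, the NDC80 complex is the part that grips microtubules. Nuf2 had the largest fold change of the 42 genes (chromosome 1, 169497934 to 169531464, GRCm38). It was at 14.9, 12.3 and 12.8 CPM in EL spheres and 2.96, 3.58 and 3.54 in PT spheres (log2 fold change -1.99, SE 0.10; edgeR adjusted p = 1.00e-09). Its direct partner Ndc80 was at 12.8, 11.3 and 10.1 CPM in EL libraries against 3.59, 3.24 and 3.18 in PT libraries (-1.77, SE 0.11). The other pair of subunits anchors the complex to the inner kinetochore. Spc24 was at 7.74, 6.70 and 6.93 CPM in EL spheres and 2.69, 2.53 and 2.39 in PT spheres (-1.49, SE 0.11), and Spc25 at 9.95, 9.74 and 9.72 CPM in EL libraries against 5.32, 5.26 and 4.89 in PT libraries (-0.93, SE 0.08). The ratio of Spc25 to Nuf2 per kilobase was 1.05, 1.25 and 1.20 in the EL libraries. In the PT libraries it was 2.83, 2.32 and 2.17, so every PT library held relatively more Spc25. The ratio of Ndc80 to Nuf2 overlapped between the groups (0.933 ± 0.0693 in EL and 1.10 ± 0.195 in PT).

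Among the other centromere genes, Cenpa encodes the histone H3 variant that marks the centromere. It was at 21.8, 17.6 and 17.6 CPM in EL spheres and 6.38, 7.30 and 7.20 in PT spheres (log2 fold change -1.45, SE 0.09). Cenpe, a kinesin that moves chromosomes to the spindle equator, was at 19.5, 20.7 and 17.9 CPM in EL libraries against 6.61, 6.40 and 6.90 in PT libraries (-1.54, SE 0.07). Cenpf, a large protein of the outer kinetochore, was at 17.4, 18.5 and 19.1 CPM in EL spheres and 8.35, 8.76 and 8.66 in PT spheres (-1.09, SE 0.06). All 7 centromere and kinetochore members fell, with a median of -1.49 on the log2 scale.

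The 6 kinesins slide, cross-link or shorten spindle microtubules, and their median log2 fold change was -1.43. Kif4, the chromokinesin that sets the length of the midzone, was at 16.8, 14.2 and 13.95 CPM in EL spheres and 5.05, 4.44 and 4.94 in PT spheres (-1.64, SE 0.09). Kif15 was at 11.9, 9.42 and 10.6 CPM in EL libraries against 3.37, 3.30 and 3.68 in PT libraries (-1.62, SE 0.10). Kif11 encodes Eg5, the motor that pushes the spindle poles apart and that KIF15 can back up. Its levels were 26.4, 22.6 and 24.4 CPM in EL spheres and 9.93, 9.14 and 10.1 in PT spheres (-1.33, SE 0.07). Kif2c, the microtubule depolymerase MCAK, was at 14.1, 14.02 and 14.1 CPM in EL libraries against 4.97, 5.04 and 4.67 in PT libraries (-1.52, SE 0.07), with the tightest EL values of all members. Kif23, a subunit of centralspindlin, was at 21.96, 18.98 and 18.9 CPM in EL spheres and 7.49, 7.58 and 8.48 in PT spheres (-1.34, SE 0.08).

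Kif20a, which brings the passenger complex to the midzone, fell least of the kinesins, from 39.7, 34.1 and 34.1 CPM in EL to 19.6, 21.1 and 19.4 in PT (-0.85, SE 0.06). Its exons share 1271 bases with exons of Cdc23 on the opposite strand, and the strand setting of the counting is not given in the sources used here. Cdc23, an APC/C subunit, stood at 71.6 ± 3.43 CPM in EL spheres and 65.5 ± 1.61 in PT spheres (log2 fold change -0.13, or 0.12 with library totals). How far reads of Cdc23 enter the Kif20a value was not tested.

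Other members with coding neighbours on the opposite strand are Ccna2 (510 shared bases with Exosc9), Kif4 (832 with Pdzd11), Prc1 (911 with Rccd1), Ube2c (592 with Tnnc2), Cdca8 (232 with 9930104L06Rik), Nusap1 (172 with Oip5) and Cdc20 (53 with Elovl1). Exosc9 had a log2 fold change of -0.11, or 0.13 with library totals, and Rccd1 one of 0.99. Of the 7 members whose estimated fall was under 2-fold, Ccna2, Kif20a and Cdca8 have such a neighbour, as do Prc1, Kif4, Ube2c, Nusap1 and Cdc20 of the 35 that fell over 2-fold. In all, 11 members overlap an exon of another annotated gene, and 8 have a stretch of at least 90% identity with another annotated transcript. For Prc1 that transcript is of Rccd1, the overlapping neighbour named above, and not a separate copy. Ccnb1 has 4 such copies, each over 51.0 to 51.9% of its transcript, with Ccnb1-ps at 99.2% identity over 51.7%. Values of these genes are uncertain to that extent.

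Of the proteins that assemble and bundle the spindle, TPX2 activates AURKA and starts microtubule growth near chromosomes. Tpx2 was at 38.8, 33.9 and 32.8 CPM in EL spheres and 12.7, 12.3 and 13.2 in PT spheres (log2 fold change -1.47, SE 0.07). Prc1, the bundler of antiparallel microtubules in the midzone, was at 42.4, 36.1 and 35.00 CPM in EL libraries against 15.3, 13.8 and 16.1 in PT libraries (-1.33, SE 0.08). Hmmr, a spindle pole protein that is also known as a hyaluronan receptor, was at 20.9, 20.2 and 20.7 CPM in EL spheres and 8.42, 7.49 and 9.40 in PT spheres (-1.29, SE 0.08). Nusap1, which links microtubules to chromatin, was at 19.3, 17.3 and 17.4 CPM in EL libraries against 7.70, 7.40 and 8.16 in PT libraries (-1.22, SE 0.07). This role was the most even of those with at least 4 genes, with fold changes from -1.47 to -1.22.

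Anaphase starts when CDC20 activates the APC/C and securin is destroyed, which frees separase. Cdc20 was at 32.8, 26.6 and 28.9 CPM in EL spheres and 12.6, 12.9 and 12.8 in PT spheres (log2 fold change -1.20, SE 0.07). Ube2c, the ubiquitin-conjugating enzyme of the APC/C, was at 31.2, 27.2 and 24.96 CPM in EL libraries against 9.28, 8.97 and 9.43 in PT libraries (-1.59, SE 0.08). Espl1, the separase gene, was at 13.5, 11.1 and 10.96 CPM in EL spheres and 5.19, 4.68 and 4.98 in PT spheres (-1.26, SE 0.10). Securin itself moved less. Pttg1, its gene, was at 11.3, 9.47 and 9.89 CPM in EL spheres and 7.29, 6.84 and 6.99 in PT spheres (-0.54, SE 0.08; edgeR adjusted p = 5.88e-05). Per kilobase, the ratio of Pttg1 to Espl1 was 3.44 ± 0.129 in EL and 5.66 ± 0.126 in PT, with no overlap.

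The cytokinesis pair fell together. Anln, the actin-binding protein anillin of the contractile ring, was at 51.1, 48.2 and 46.9 CPM in EL spheres and 16.7, 18.7 and 18.4 in PT spheres (log2 fold change -1.44, SE 0.05). Ect2, the exchange factor that turns on RhoA at the cell equator, was at 26.7, 23.8 and 25.7 CPM in EL libraries against 11.2, 11.03 and 11.8 in PT libraries (-1.16, SE 0.06). Both transcription factors among the members were lower as well. Foxm1 was at 29.1, 24.9 and 25.2 CPM in EL spheres and 9.40, 9.06 and 9.16 in PT spheres (-1.52, SE 0.07). Mybl2, which encodes B-MYB, was at 9.43, 8.53 and 8.94 CPM in EL libraries against 3.24, 2.42 and 2.68 in PT libraries (-1.69, SE 0.11), and had the lowest count of any member in a library.

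Members did not all fall by the same amount. Each gene was set against the median of the 42 in its library, a measure that no scaling factor changes. Such a median leaves genes on either side by construction. The same measure was not taken over all genes, so no count of genes is given. The largest relative falls from EL to PT were those of Nuf2 (-0.61 on the log2 scale), Plk1 (-0.44) and Ndc80 (-0.39). The largest relative rises were those of Bub3 (1.22), Pttg1 (0.84), Incenp (0.69), Kif20a (0.53) and Spc25 (0.45). Across the 42 genes the log2 fold change had a standard deviation of 0.36, against 1.82 over all genes tested. It had a Spearman correlation of 0.33 with mean expression and -0.11 with transcript length, across genes of the same libraries that are not independent replicates.

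Levels can be compared roughly between genes once they are divided by transcript length, which was found for all 42. After Bub3, the highest EL levels per kilobase were those of Ube2c (28.7 CPM per kilobase), Top2a (16.9), Cdc20 (16.4) and Ccna2 (15.4). In PT the order after Bub3 was Ube2c (9.54), Ccna2 (7.73), Cdc20 (7.14) and Kif20a (6.36). The lowest per kilobase in EL were Cenpf (1.65) and Espl1 (1.78), and in PT Kif15 (0.710) and Espl1 (0.743). Top2a, at 5.23 in PT, was below Kif20a and also below Cdca8 (5.96), Incenp (5.63) and Mad2l1 (5.53). These are levels, not differences, and their depth is that of the counts given above. Some of the ranked genes overlap others or have near copies. Ube2c shares 592 bases with Tnnc2 and Kif20a 1271 with Cdc23, and Cdc20 has a copy at 93.6% identity over 83.3% of its transcript. How far such reads shape the order was not tested.

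Other genes of cell division, listed by textbook role, were lower in PT less uniformly. Of 115 tested, 86 were called lower and 19 higher, with a median log2 fold change of -0.52, against 40.8% and 39.9% over all genes. With library totals 68 were called lower, where 29.7% of all genes were lower and 57.1% higher, and the counts given for that scaling in each list stand against these shares. All 16 other centromere genes were called lower (median -0.66), or 10 of 16 with library totals, among them Cenpi (-1.44, SE 0.11) and Cenpo (-1.21, SE 0.06). In the outer kinetochore 7 of 9 were called lower and none higher (6 and 1 with library totals), with Casc5, the KNL1 gene, at 10.6, 9.16 and 8.69 CPM in EL spheres and 3.82, 2.94 and 3.34 in PT spheres (-1.49, SE 0.11). Ska1, a microtubule coupler, was at -1.73 (SE 0.14). All 6 tested mitotic kinesins fell, or 5 with library totals, and Kif14, which works with citron kinase in cytokinesis, was at -1.74 (SE 0.12) and Kif22 at -1.37 (SE 0.10). Of 20 spindle and centrosome genes 17 were called lower and 2 higher (14 and 3 with library totals), with, on the lower side, the citron kinase gene Cit (-1.69) and the centriole kinase gene Plk4 (-1.46). Numa1 (0.59) rose, as did Kif5b (0.30), a kinesin of cargo transport that the list also holds. Of 8 condensin genes 7 were called lower and none higher (7 and 1 with library totals), with Smc4 at -0.90 and Ncapg2 at -1.11.

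Of the 7 genes in the list of checkpoint genes outside the 42, 4 were called lower and none higher (4 and 2 with library totals). Kntc1, a subunit of the ROD-ZW10-Zwilch complex, was at 14.9, 13.6 and 14.1 CPM in EL spheres and 4.95, 5.24 and 5.12 in PT spheres (-1.48, SE 0.07). Another of the 4 called lower was Cdca2 (-1.22, SE 0.09), which targets protein phosphatase 1 to chromatin and which the list also holds. Zw10, a partner of KNTC1 named here after its values were seen, was at 21.6 ± 1.34 and 21.5 ± 1.17 CPM (adjusted p = 0.939 by edgeR; log2 fold change 0.24 with library totals). Cohesin genes were called lower in 6 of 11 and higher in 5 (3 and 7 with library totals), and the lower ones included Sgol1, the shugoshin that protects centromeric cohesin (-1.53, SE 0.11), while Rad21 (0.37) and Stag2 (0.40) rose. APC/C genes were called lower in 10 of 16 and higher in 4 (7 and 6 with library totals). Cdc27 (-0.65) and Cdc16 (-0.57) fell, and Anapc7 (0.46) and Anapc13 (0.47) rose.

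In the list of mitotic entry regulators, 9 of 12 were called lower and 3 higher, under TMM and library totals alike. Cdc25b, a phosphatase that activates CDK1, was at 21.6, 19.2 and 19.9 CPM in EL spheres and 5.73, 6.57 and 6.05 in PT spheres (-1.72, SE 0.07). Wee1, the kinase that inhibits CDK1, went the other way. Its levels were 20.8, 22.2 and 19.1 CPM in EL spheres and 53.6, 61.1 and 57.1 in PT spheres, a rise of 1.47 on the log2 scale (SE 0.06; edgeR adjusted p = 8.86e-11). The second inhibitory kinase gene, Pkmyt1, rose by 0.31 (SE 0.07), from 10.3 ± 0.597 to 12.7 ± 0.521 CPM (n = 3 each). Cdc25a, named here after its values were seen, rose by 0.25 (SE 0.06). Every PT value of Wee1 was above every EL value, the reverse of its target Cdk1.

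Of 10 DREAM and MuvB genes 4 were called lower and 5 higher (3 and 5 with library totals), with a median of 0.13. Mybl1, which encodes A-MYB, the relative of B-MYB, was at 5.01, 4.86 and 4.71 CPM in EL spheres and 14.7, 17.7 and 15.4 in PT spheres (1.71, SE 0.09; edgeR adjusted p = 8.03e-10). Mybl2, at -1.69, went the opposite way. Tfdp1 (-0.49) and Lin54 (-0.61) fell. A further 5 listed genes have no row in the shortened table of EL replicate 1. In the 5 complete libraries (2 EL and 3 PT), where 40.2% of genes were called lower, all 5 were called lower: Kif18b (-1.37), Ska3 (-1.04), Kif20b (-0.91), Nsl1 (-0.64) and Hjurp (-0.51).

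**Figure D4:**
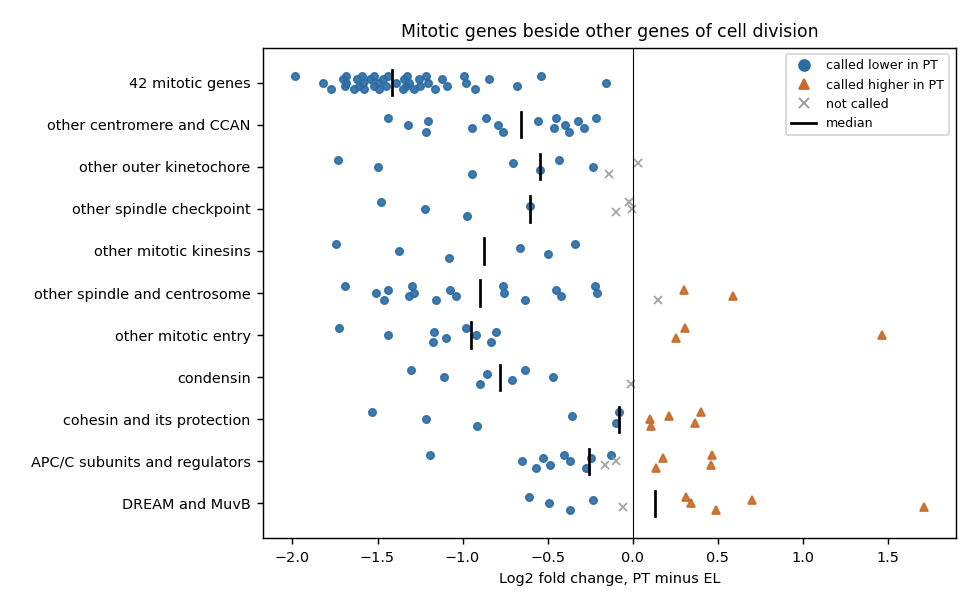
Log2 fold change (PT minus EL, x axis) of the 42 mitotic genes and of 10 other lists of cell division genes; each symbol is a gene, coloured by its edgeR call, and the black bar is the median of the list. The 42 genes have the lowest median, and triangles to the right mark genes called higher, with Wee1 (1.47) and Mybl1 (1.71) the farthest.

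Summed markers of the cell types that a sphere culture can hold differed between the groups, except those of lymphocytes. The calls below stand against 40.8% of all genes tested called lower and 39.9% higher. With library totals these shares were 29.7% and 57.1%. The 11 fibroblast markers, all called lower in PT, summed to 68374 to 72811 CPM in EL and 677 to 808 in PT. Among them Col1a1, the main chain of type I collagen, had 19014 ± 487 CPM in EL spheres and 178 ± 16.4 in PT. Those of endothelium (10 of 10 called lower) summed to 277 to 298 and 6.46 to 7.47, and those of pericytes (6 of 6, or 5 with library totals) to 471 to 486 and 124 to 132. The 4 tested of 7 adipocyte markers were called lower, or 3 with library totals (sums of 371 to 441 and 32.7 to 41.2). Lpl made up most of these sums, with 388 ± 38.4 CPM in EL spheres and 34.3 ± 4.41 in PT. The other 3 did not pass the filter on low counts, so their 0 counts in PT are not read as a loss. The 11 luminal epithelial markers were all called higher, with sums of 3091 to 3151 CPM in EL and 12528 to 12749 in PT. The luminal keratin gene Krt18 had 492 ± 4.59 CPM in EL spheres and 2042 ± 49.4 in PT. Basal markers were called lower for 5 and higher for 3 of 8 (sums of 483 to 532 and 604 to 636), and macrophage markers higher for 7 of 8, or 8 with library totals (84.9 to 111 and 193 to 222). The 10 lymphocyte markers summed to 9.63 to 14.4 CPM in EL and 11.6 to 14.6 in PT, so the groups overlapped. Only 2 of them were tested. Ptprc, the larger part of the sum, was called higher (8.31 ± 1.71 CPM in EL and 12.5 ± 1.49 in PT). Cd4 was called lower (2.27 ± 0.294 and 0.894 ± 0.167). The rest did not pass the filter on low counts, and 5 had 0 counts in PT, which is not read as a loss. Luminal, fibroblast, endothelial and other markers were thus all detected in the EL cultures that the labels call breast cancer cells. Their part in the lower level of the 42 mitotic genes was not tested.

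**Figure D5:**
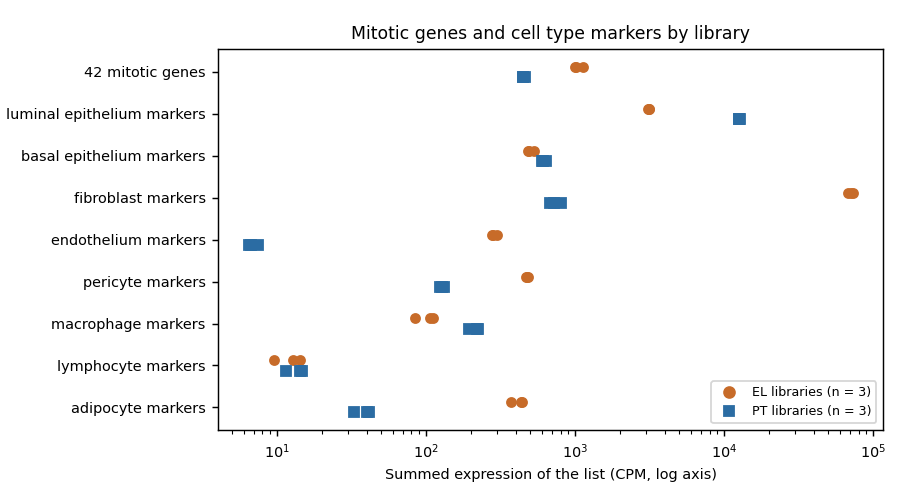
Summed expression (x axis, CPM on a log axis) of the 42 mitotic genes and of each cell type marker list in the 3 EL libraries (circles) and 3 PT libraries (squares). The mitotic genes are lower in PT, between 447 and 466 CPM, and so are fibroblast, endothelial, pericyte and adipocyte markers, while luminal markers are higher.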

How the data were processed

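Polyadenylated RNA of 3 EL and 3 PT sphere libraries was sequenced on an Illumina MiSeq, per the labels' protocols. The submitters' processing notes name STAR, featureCounts, DESeq2 and the builds mm10 and hg19, with no version. The strand setting was not given in the sources used here. Each deposited table gives unnormalized read counts of RefSeq transcripts. Totals were between 69759793 and 85126630. The EL replicate 1 table ends after 27664 of 33068 rows, and the comparison used the rows present in all tables; all 62 rows of the 42 members are among them. Transcripts of a gene share exons, so 1 transcript per symbol was kept. Genes were filtered with filterByExpr, scaled by TMM and tested with the quasi-likelihood test of edgeR 4.0.16 in R 4.3.3 (PT against EL, Benjamini-Hochberg over 13844 genes, threshold 0.05). The fit was first checked on simulated data in which few genes changed, as many up as down. That check does not cover data in which 80.7% of genes are called. Standard errors are the log2 fold change divided by the root of F. Alternatives used DESeq2 1.42.0 and limma-voom 3.58.1, other scalings, filters and left-out libraries. Transcript lengths came from GENCODE M21 by RefSeq match. Members and lists were chosen with earlier results of these data known. All members are named; from each other list the text names up to 2 genes with the smallest p and up to 2 called against the list's direction, from marker lists genes among the 2 of highest mean CPM, plus those said to be chosen after their values were seen.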

Additional observations from a re-analysis of the deposited data

How the results depend on the processing

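All 42 members were called lower in PT under every alternative except library totals, where 41 were (29.7% of all genes were called lower), and a 2-fold minimum, where 34 were. With library totals, which moved the median of all genes to 0.25, the log2 fold change of Bub3 was 0.0889 in place of -0.16. The 8 members not called against a 2-fold minimum were Bub3, Ccna2, Cdca8, Cenpf, Incenp, Kif20a, Pttg1 and Spc25. The median log2 fold change of the members, -1.42, was -1.17 with library totals and -1.31 in the complete tables only; it ranged from -1.48 to -1.31 with each library left out, the last without EL replicate 1. The summed member level, -1.22 on the log2 scale, ranged from -1.25 to -1.16. Of the 115 other pathway genes 86 were called lower, 68 with library totals and 81 to 86 with a library left out. Against a 2-fold minimum 24 were, where 17.3% of all genes were called lower. With the replicate number as a block in the fit, 42 members were called lower and the median was -1.41. The numbers only name libraries: deviations of same-numbered libraries correlated at 0.0222, 0.00839 and -0.00216, and EL replicate 3 correlated best with PT replicate 2. Depth left no member under 129 counts in any library.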
